A study of Homo sapiens with 20 samples.

Results

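POU2AF1 and IRF4 were each mapped by ChIP-seq in DMSO-treated NCI-H929 cells, an established multiple myeloma line, and the regions called for the 2 proteins were set against each other. The members are the 29817 POU2AF1 regions and the 65174 IRF4 regions on chromosomes 1 to 22 and X, which together make 94991 of the 566782 regions in the 20 peak lists of the study. A region was called shared when it overlapped a region of the other protein by at least 1 base. The other regions were called POU2AF1-only and IRF4-only. There was 1 library for each protein, from vehicle-treated cells with no engineered allele named in the labels, so no value below has a replicate error and no test was made between the proteins. The 95% intervals are exact binomial (Clopper-Pearson) intervals and cover counting error only, and the antibody, the library and the protein cannot be told apart. Both libraries had similar depth by an estimate from the lists, at 31.9 M sequenced tags (M, mega) for POU2AF1 and 33.7 M for IRF4.

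For comparison, 5 further lists were used. Those were POU2AF1 and IRF4 in NCI-H929 cells treated with 1 µM AU-15330, a PROTAC degrader of the mSWI/SNF ATPases SMARCA2 and SMARCA4 and of the subunit PBRM1. The others were POU2AF1 and IRF4 in DMSO-treated MM1.S cells, also multiple myeloma, and POU2F3 in DMSO-treated NCI-H526 cells, a tuft cell-like small cell lung cancer line. Each was a single library. The labels give treatments of 4 to 6 h, and for NCI-H929 the time is described as 6 h.

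POU2AF1, also called OCA-B or BOB.1, is a coactivator of lymphoid cells that clamps POU2F1 or POU2F2 (OCT1 and OCT2) onto the octamer sequence and has no classical DNA-binding domain that works alone. IRF4 is a DNA-binding factor of the interferon regulatory family on which plasma cells depend. It binds GAAA repeats (the interferon-stimulated response element), or, with an ETS factor such as PU.1, a composite GGAA and GAAA element, or, with BATF and JUN, a composite of GAAA with an AP-1 site. The comparison asks where on the genome the coactivator and the factor lie together, and what sequence lies beneath.

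The sequences under some of the strongest regions show the elements in question. Each line gives 61 bases of the genome (build hg38, plus strand, 5′ to 3′), with the motif in capitals. The octamer is ATTTGCAT, or ATGCAAAT on the other strand. The first pair are POU2AF1-only regions in introns of MED13L, a Mediator subunit gene, and PTPN21, a tyrosine phosphatase gene, at 13.5-fold and 11.4-fold enrichment.
MED13L, chr12:116248641-116248701, octamer: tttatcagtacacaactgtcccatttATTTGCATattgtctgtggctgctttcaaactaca
PTPN21, chr14:88492370-88492430, octamer: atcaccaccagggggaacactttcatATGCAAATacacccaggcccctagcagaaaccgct
The next 3 are IRF4-only regions, all intergenic. They lie nearest to TMEM106B, C1GALT1 and MDGA2, at 21.5-fold, 20.6-fold and 20.04-fold enrichment, and hold a GAAA repeat (GAAANNGAAA, here on either strand) or the ETS composite GGAANNGAAA.
TMEM106B, chr7:12257743-12257803, GAAA repeat: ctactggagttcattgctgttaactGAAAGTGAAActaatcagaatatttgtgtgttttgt
C1GALT1, chr7:7251914-7251974, ETS composite: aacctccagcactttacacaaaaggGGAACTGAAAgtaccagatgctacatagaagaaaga
MDGA2, chr14:46769522-46769582, GAAA repeat: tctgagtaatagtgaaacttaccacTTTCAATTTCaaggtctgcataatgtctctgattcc
Of the 10 strongest shared regions, 3 have a GAAA repeat within 100 bases of the POU2AF1 summit. Those at the ISLR2 promoter and nearest to GPR89B are printed here. The repeat of the GPR89B region lies 55.5 bases from the POU2AF1 summit and is not within 100 bases of the IRF4 summit. No region among those 10 holds the octamer, so the shared octamer regions nearest to ZNF608 and CDH9 were added after the values were seen.
ISLR2, chr15:74100210-74100270, GAAA repeat: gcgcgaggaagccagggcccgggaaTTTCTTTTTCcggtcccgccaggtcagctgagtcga
GPR89B, chr1:148038611-148038671, GAAA repeat: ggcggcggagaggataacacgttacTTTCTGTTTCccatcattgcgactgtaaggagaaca
ZNF608, chr5:124583961-124584021, octamer: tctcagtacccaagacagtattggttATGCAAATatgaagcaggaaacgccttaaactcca
CDH9, chr5:25955449-25955509, octamer: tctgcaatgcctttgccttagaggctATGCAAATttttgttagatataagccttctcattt

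Most POU2AF1 regions lay on IRF4 regions, but most IRF4 regions had no POU2AF1 region. Of the POU2AF1 regions, 21249 were shared, or 71.3% (70.7% to 71.8%), and 8568 were POU2AF1-only. Of the IRF4 regions, 21245 were shared, or 32.6% (32.2% to 33.0%), and 43929 were IRF4-only. The lists differ in length, and the shares move with that. Among the same number of highest-fold regions from each list, the shares were 45.0% of POU2AF1 regions and 44.1% of IRF4 regions, and among the 10000 highest folds of each they were 25.6% for both. Shared regions were the wider ones, with medians of 367 bases for POU2AF1 and 492 bases for IRF4, against 232 bases for POU2AF1-only and 283 bases for IRF4-only regions. By chromosome, the shared part of POU2AF1 regions ran from 62.2% on chromosome 8 to 77.9% on chromosome 17, and that of IRF4 regions from 25.3% on chromosome 13 to 49.4% on chromosome 19.

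Fold is the caller's ratio of the fragment pileup at the summit to the local background. The median fold was 4.50 over the POU2AF1 list and 4.91 over the IRF4 list, with highest values of 31.0 and 34.6. A second measure, called level here, is the same pileup over a single background for the whole library. A region in a broadly covered stretch can have a low fold and a high level. Both measures rank regions within a list.

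Strong regions of POU2AF1 were nearly all on IRF4 regions. In the 20% of POU2AF1 regions with the lowest fold, 48.6% were shared, and in the 20% with the highest fold, 94.8%. For IRF4 the shares were 17.5% at the lowest and 49.0% at the highest fold. By level they ran from 34.0% to 94.9% for POU2AF1 and from 6.64% to 62.1% for IRF4. The top of the lists did not coincide, however. Of the 100 highest folds of POU2AF1, 96 overlapped some IRF4 region but only 4 overlapped one of the 100 highest folds of IRF4. Of the 1000 highest folds, 966 POU2AF1 regions and 742 IRF4 regions were shared, and 100 in each list overlapped the top 1000 of the other. The strongest POU2AF1 regions were mostly at promoters, with 64.4% of the top 1000 within 1 kb of a protein-coding transcription start site (TSS), against 5.5% of the top 1000 of IRF4.

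**Figure D1:**
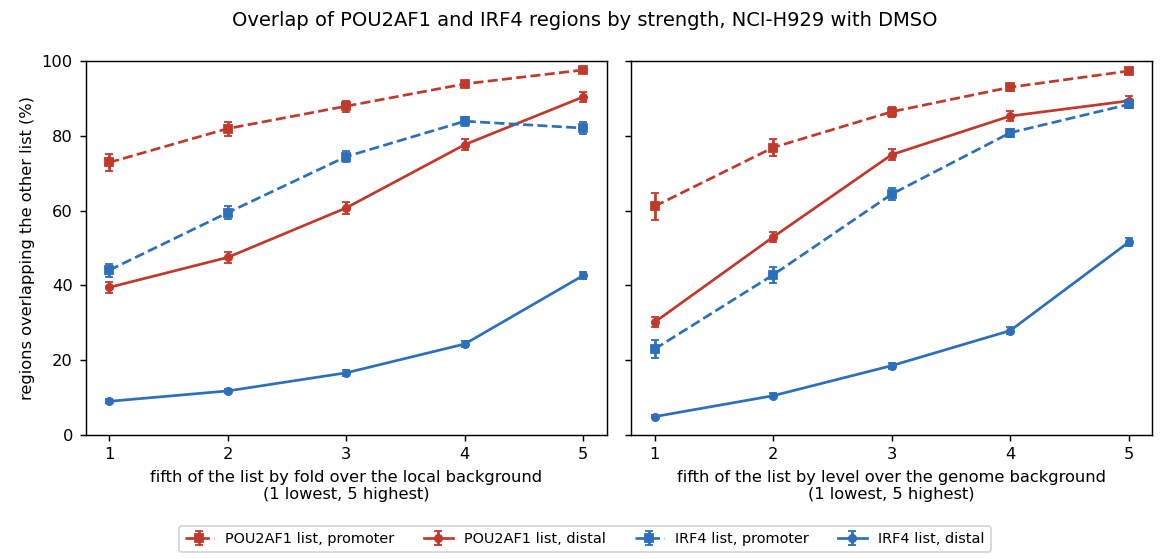
Share of regions that overlap the other protein's list (%), with 95% exact intervals, in 5 equal classes of each list by fold over the local background (left) and by level over the genome background (right), for promoter regions (dashed) and distal regions (solid). Distal POU2AF1 regions climb from 39.4% to 90.4% by fold, while distal IRF4 regions climb from 8.95% to 42.6%.

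Sharing was concentrated at promoters. Of shared POU2AF1 regions, 50.1% had their summit within 1 kb of a protein-coding TSS, compared with 14.7% (14.0% to 15.5%) of POU2AF1-only and 11.1% (10.8% to 11.4%) of IRF4-only regions. With both lists held to a −log10 q of 5 or more, those shares were 32.6% of POU2AF1-only, 56.5% of shared and 13.2% of IRF4-only regions. Introns held 36.7% of POU2AF1-only, 19.3% of shared and 38.6% of IRF4-only regions. Intergenic sequence held 45.4%, 28.3% and 47.5% of those classes. The median distance to a TSS was 18.996 kb for POU2AF1-only, 0.974 kb for shared and 25.7 kb for IRF4-only regions. GC content within 100 bases of the summit followed, with medians of 45.8%, 61.2% and 44.8%. At promoters, 89.4% of POU2AF1 regions and 68.6% of IRF4 regions were shared. At distal sites, over 1 kb from any protein-coding TSS, the shares were 59.2% and 21.3%.

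Where regions were shared, the summits lay close together, but the overlap rule itself limits how far apart they can be. Shared regions had median widths of 367 bases for POU2AF1 and 492 bases for IRF4, and no reference distance was counted. The median distance between the POU2AF1 summit and the nearest IRF4 summit was 77 bases (quartiles 33 and 162), and 59.5% (58.9% to 60.2%) of pairs were within 100 bases. Distal summits were closer, at a median of 62 bases, than promoter summits at 99 bases. At distal shared regions the distance shrank with POU2AF1 fold, with medians of 95 bases in the lowest 20% of folds and 42 bases in the highest 20%. In the 1242 distal regions that were in the highest 20% of both lists, the median was 34 bases and 89.8% were within 100 bases. At shared promoters the POU2AF1 summits had a median position of -7 bases and the IRF4 summits of -40 bases from the TSS, and 54.4% of POU2AF1 summits and 59.1% of IRF4 summits lay upstream of it.

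**Figure D2:**
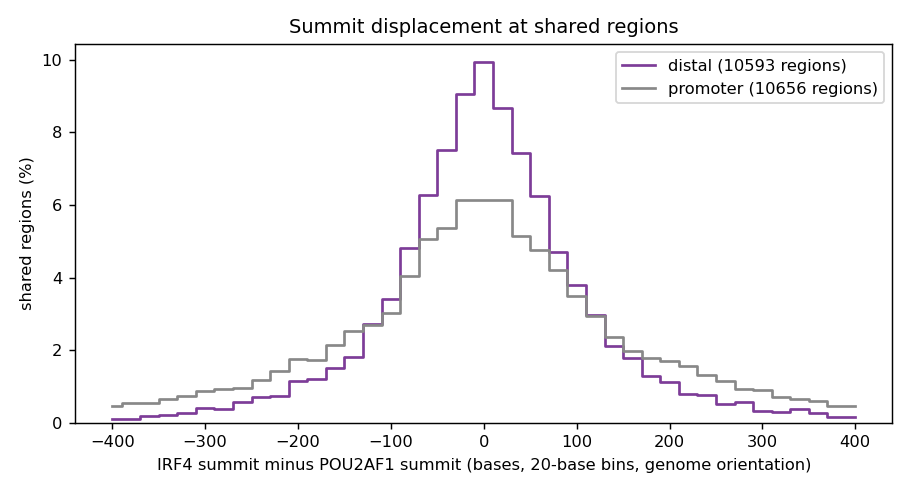
Displacement of the IRF4 summit from the POU2AF1 summit (bases, in 20-base bins, genome orientation) as a share of the 10593 distal and the 10656 promoter shared regions (%). The distal curve peaks at 0 and is narrower than the promoter curve, with 68.7% of distal and 50.4% of promoter pairs within 100 bases.

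The octamer went with POU2AF1 and the IRF motif with IRF4, with shared distal regions rich in both. The octamer ATTTGCAT lay within 100 bases of the summit in 6.95% (6.38% to 7.56%) of distal POU2AF1-only regions, against 1.88% of equal windows placed 2 kb upstream and downstream and off any region. Shared distal regions had it at 7.84% of POU2AF1 summits (flanks 1.63%) and at 5.69% of IRF4 summits (flanks 1.59%). In distal IRF4-only regions it was at 2.05% (1.92% to 2.20%), close to the 1.9004% of their flanks and the 2.02% of all such windows on a fixed grid over the genome. At distal regions the octamer match was thus above its flanks wherever POU2AF1 was called, and near its flanks where IRF4 alone was called.

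The IRF motif was counted as GAAANNGAAA or GGAANNGAAA on either strand. It lay in 5.47% (4.96% to 6.02%) of distal POU2AF1-only regions, close to the 5.55% of their flanks. It lay in 14.2% of shared distal regions at the POU2AF1 summit and 17.2% at the IRF4 summit, with flanks of 5.31% and 5.30%. In distal IRF4-only regions the share was 18.6%, against 5.52% of flanks. The ETS composite by itself was in 2.22% of POU2AF1-only, 4.07% of shared (POU2AF1 summit) and 5.76% of IRF4-only distal regions, with flanks of 2.08% to 2.15%. Both kinds of site in 1 distal shared region were uncommon. The octamer core TTTGCAT and the IRF motif occurred together in 1.81% of them, beside the 1.65% given by multiplying the 2 separate shares.

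Motifs of other factor families differed between the classes, and not all followed the IRF motif. AP-1 sites (TGANTCA), bound by BATF and JUN, were in 6.33% of POU2AF1-only distal regions (flanks 6.04%), in 13.6% and 16.0% of shared regions at POU2AF1 and IRF4 summits, and in 16.1% of IRF4-only regions. RUNX sites (TGTGGTT) were in 5.47%, then 15.7% and 17.9%, then 15.0% of the same classes. Their flanks had 3.44% to 3.74%, so each class was above them. Sites of the insulator protein CTCF (CCANNAGNNGGC) were in 6.21% of POU2AF1-only, 7.66% of shared (POU2AF1 summit) and 4.01% of IRF4-only distal regions. With flanks near 0.5%, they were above the flanks in every class. At shared promoters Sp/KLF boxes (GGGCGGG) were at 39.7% of POU2AF1 summits and 42.3% of IRF4 summits, and ETS sites (CCGGAA), at 21.1% and 22.8%. The octamer was at 1.62% and 0.832% of those promoter summits.

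**Figure D3:**
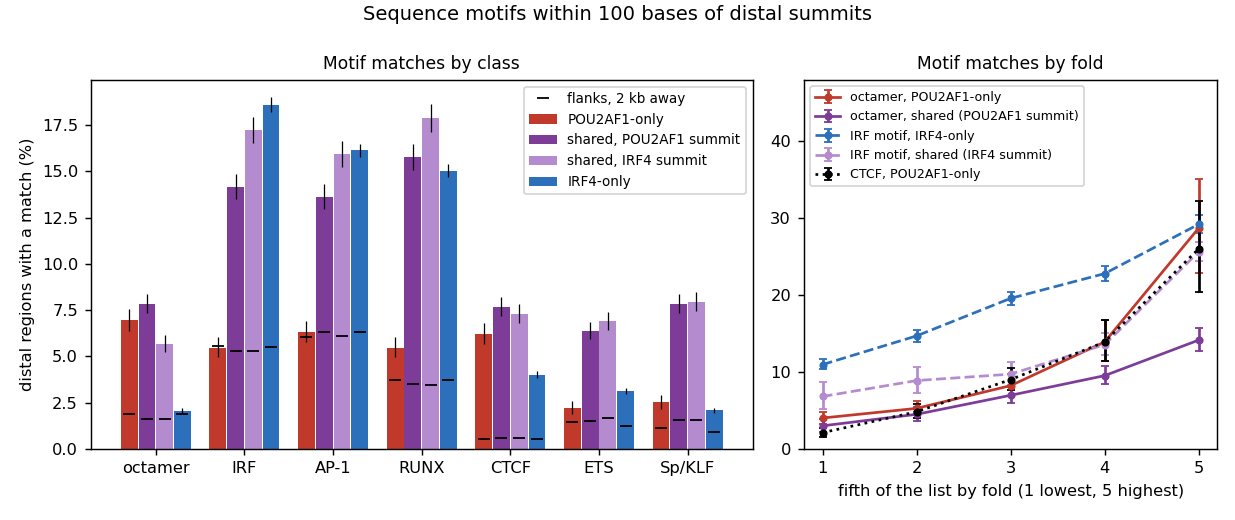
Left, distal regions with a motif match within 100 bases of the summit (%) for POU2AF1-only, shared and IRF4-only regions, with 95% exact intervals and a dash at the share of flanking windows. Right, the share with a match in 5 equal classes of the list by fold. Octamer matches in POU2AF1-only regions reach 28.7% and IRF motif matches in IRF4-only regions reach 29.2% in the highest class.

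The stronger the region, the more often it held its motif. In POU2AF1-only distal regions the octamer was in 4.00% of those with the lowest 20% of folds and in 28.7% (22.9% to 35.1%) of the 223 with the highest 20%. The CTCF motif in the same regions was in 2.097% at the lowest and 26.01% (20.4% to 32.3%) at the highest folds. In shared distal regions the octamer was in 2.99% and 14.1% of POU2AF1 summits at the lowest and highest folds. The IRF motif was in 11.0% of the weakest and 29.2% (28.1% to 30.3%) of the strongest IRF4-only distal regions. CTCF matches in IRF4-only regions had no such order, at 3.60%, 4.88%, 5.60%, 4.03% and 1.37% in the 5 classes of fold, weakest to strongest.

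A count of all words of 8 bases within 50 bases of distal summits, made without naming a motif beforehand, returned the same elements. ATGCAAAT, the octamer on its other strand, was the word furthest above the flanks in POU2AF1-only regions, at 4.71% against 0.864%, and at POU2AF1 summits of shared regions, at 5.46% against 0.716%. At IRF4 summits of shared regions the leading word was AAACCACA, which holds a RUNX site, at 6.50% against 0.689%. Next was AACTGAAA, the end of an IRF site, at 6.25%. In IRF4-only regions AACTGAAA led at 6.80% against 0.923%, followed by AAACCACA at 5.39%, and the AP-1 word ATGACTCA was at 3.37%. The exact octamer was 5.4 times its flank share in POU2AF1-only and 7.6 times in shared regions.

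The gaps between GAAA and AP-1 sites that were above the median included those known for IRF4 with BATF and JUN. Per 1000 TGANTCA sites in IRF4-only distal regions, 35.7 had GAAA immediately beside the site in the orientation toward it, against a median of 20.9 over all gaps examined. With the opposite orientation, TTTC at a gap of 4 bases, there were 31.6 per 1000, against a median of 17.7. Shared regions at IRF4 summits had 37.6 and 39.2 per 1000 at those arrangements. POU2AF1-only regions had 8.4 and 12.6 per 1000, from only 4 and 6 pairs. These gaps were singled out after the values were seen.

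The POU2AF1 summit was the nearer to the octamer, and the IRF4 summit the nearer to the IRF motif. In 710 shared distal regions with a single octamer, the POU2AF1 summit lay a median of 29.5 bases from it and the IRF4 summit 59.5 bases. POU2AF1 was the nearer in 490 regions and IRF4 in 216. In 1485 shared distal regions with a single IRF motif, the POU2AF1 summit lay 49.5 bases and the IRF4 summit 35.5 bases from it. There POU2AF1 was the nearer in 599 and IRF4 in 879. At CTCF sites the medians were close, at 44.5 bases for POU2AF1 and 47.5 bases for IRF4. IRF4 summits were also the nearer at other motifs, so the order at the IRF motif was not particular to it. The medians for IRF4 and POU2AF1 were 43 and 57 bases at AP-1 sites and 39 and 48.5 bases at RUNX sites. At E-boxes (CAGCTG) they were 47.5 and 54.5 bases.

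The balance of the 2 signals at a shared region also followed the motif beneath. The log2 ratio of the POU2AF1 level to the IRF4 level had a median of -0.33 over all shared regions, -0.10 at promoters and -0.67 at distal sites. Since the 2 libraries used different antibodies, only the order between kinds of region can be read from it. Distal regions with an octamer and no IRF motif near either summit had a median of -0.18 (724 regions), and those with an IRF motif and no octamer -1.17 (1890 regions). With both motifs it was -0.51, between those values, and with neither -0.61. Regions with AP-1 or RUNX sites were both at -0.99, and those with CTCF sites at -0.13. The quartiles overlap between kinds: -0.69 and 0.28 for the octamer alone, and -1.66 and -0.65 for the IRF motif alone. Across shared regions of these single libraries the log2 levels of the 2 proteins correlated with Pearson r of 0.34 and Spearman rho of 0.34, given as a description, since regions share a library, a genome copy number and base composition.

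**Figure D4:**
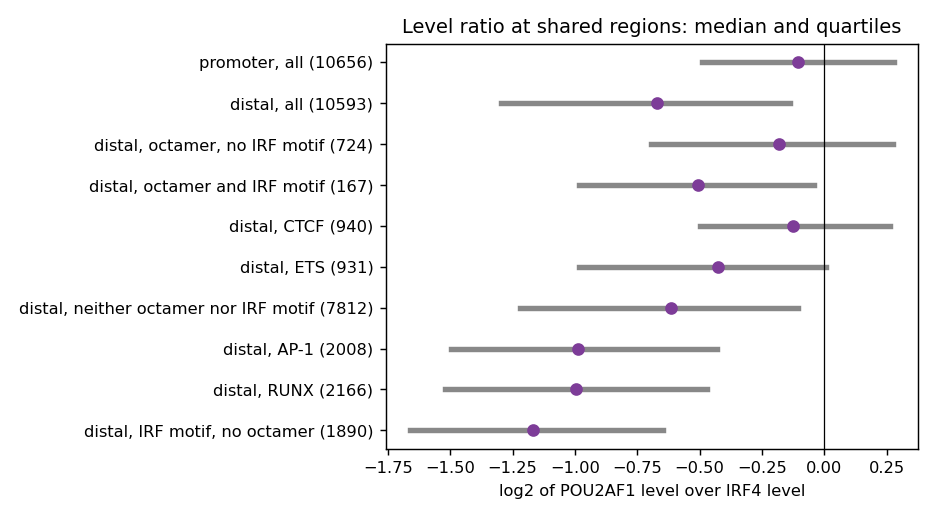
Median (point) and quartiles (bar) of the log2 ratio of POU2AF1 level to IRF4 level at shared regions, by promoter or distal position and by the motifs near either summit, with the number of regions in brackets. The octamer without IRF motif sits at -0.18 and the IRF motif without octamer at -1.17.

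The strongest shared region by rank in both lists was on chromosome 13 (chr13:18211875-18212246 for POU2AF1), in intergenic sequence 970 kb from its nearest protein-coding gene TUBA3C. It had a fold of 31.0 for POU2AF1 and 34.6 for IRF4, rank 1 in both, and was also called in all 5 other lists. No control or input is named for these calls, so a region called in every list could not be compared with one. Called in all 5 as well were the regions nearest to FRG2C (20.3-fold for both proteins) and GPR89B (21.9-fold for POU2AF1 and 16.6-fold for IRF4). Over all shared regions, 250 POU2AF1 regions, or 1.18%, were called in all 5 other lists, compared with 16 of the 96 shared among the 100 highest POU2AF1 folds. Of the other 7 in the 10 strongest shared regions, ISLR2, GRAPL and SLC9A3 were still called for POU2AF1 with AU-15330, as was ARPP21. BMP3, CXCR4 and TCF7L2 were not. CXCR4 encodes the chemokine receptor that holds plasma cells in the marrow, and the region nearest to it, intergenic, at -208 kb from its TSS, chr2:136327109-136327490, had 13.1-fold POU2AF1 and 19.4-fold IRF4 enrichment with summits 7 bases apart. TCF7L2 encodes a transcription factor of the Wnt pathway, and the intergenic region nearest to it had 14.6-fold and 16.6-fold enrichment. Both were called for both proteins in MM1.S cells.

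The 10 strongest POU2AF1-only regions had folds of 11.4 to 22.2. They lay nearest to POLR3K (chr16:10885-11185, near the end of the chromosome), CCDC144A, RPTOR, CACNA1B, TP53TG3, MED13L, ESF1, EEF2K, CLCA1 and PTPN21. The regions at MED13L and PTPN21 hold an octamer, and that near EEF2K, an elongation factor kinase gene, only the octamer core. CTCF motifs lie in those near POLR3K, CACNA1B and TP53TG3. RPTOR, a subunit of mTORC1, CCDC144A and ESF1 had the region at their promoter. Of the 10, all but MED13L were still called for POU2AF1 with AU-15330. Over the list, 38.4% of all POU2AF1 regions and 7.83% of POU2AF1-only regions were. The 10 strongest IRF4-only regions, with folds of 18.4 to 21.5, were all called for IRF4 in MM1.S cells, as were 20.6% of IRF4-only regions. None was called with AU-15330 in either list or for POU2F3 in NCI-H526 cells. With AU-15330 only 0.887% of all IRF4 regions were still called for IRF4, so the 2 sets of 10 cannot be contrasted by these counts. The 10 IRF4-only regions lay nearest to TMEM106B, C1GALT1, MDGA2, LAMP5, RGMB, CATSPERB, KALRN, CLMN, AGAP1 and EYA1, each intronic or intergenic. Of these, 8 had an IRF motif within 100 bases of the summit. For the last 2, KALRN had a RUNX site and EYA1 an AP-1 site.

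Ranked by level rather than fold, a choice made after the values were seen, the shared regions at the top were of several kinds. The first was intergenic, on chromosome 16 and nearest to SHCBP1, with levels of 121 for POU2AF1 and 113 for IRF4, and was called in all 5 other lists. Promoters were among the rest. NUF2 and RGS5, whose starts lie in 1 region, had levels of 81.7 for POU2AF1 and 96.1 for IRF4. KMT2A, the histone methyltransferase gene, had 57.8 and 81.4. A region 87.4 kb from FASLG, at chr1:172746325-172746719, had levels of 65.0 for POU2AF1 and 112 for IRF4 with an IRF, an AP-1 and a RUNX match, and was not called for POU2F3 in NCI-H526 cells.

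Each of the 7 genes of this circuit had a region of both proteins in its body or within 10 kb upstream. That is common, as 70.0% of all protein-coding genes had a POU2AF1 region there and 80.0% an IRF4 region. At the IRF4 gene, on chromosome 6, POU2AF1 had 3 regions and IRF4 had 1 that was shared, at the promoter. The shared POU2AF1 region (chr6:391581-393251) had a fold of 3.61, rank 24331, but a level of 30.4, rank 479. The IRF4 region had a fold of 5.68 and a level of 28.2. For POU2AF1 the gene thus stood low by fold and high by level.

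The POU2AF1 gene, on chromosome 11, had 8 POU2AF1 regions, 7 of them shared, and 13 IRF4 regions, 7 of them shared. The highest IRF4 level was 47.9, rank 287, in the shared region chr11:111371086-111371802. Octamers lay in 3 of the POU2AF1 regions of this gene, and sites from 2 of them are shown because the gene encodes the coactivator itself. The first is POU2AF1-only (5.49-fold) and was also called for POU2AF1 in MM1.S and for POU2F3 in NCI-H526. The second is shared (3.65-fold for POU2AF1 and 4.72-fold for IRF4).
POU2AF1 intron, chr11:111389091-111389151, octamer: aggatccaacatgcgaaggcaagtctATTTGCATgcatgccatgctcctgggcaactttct
POU2AF1 intron, chr11:111439085-111439145, octamer: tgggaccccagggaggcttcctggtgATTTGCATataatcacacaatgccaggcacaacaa

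POU2F1 and POU2F2 encode the octamer factors that POU2AF1 binds. POU2F1 had 7 POU2AF1 regions and 9 IRF4 regions, 5 shared in each. Its intronic IRF4 region chr1:167276923-167277394 had a fold of 12.3 and a level of 74.4, rank 33 of the list, over a POU2AF1 region of level 19.3. POU2F2 had 3 POU2AF1 and 6 IRF4 regions, 2 shared in each, and its strongest POU2AF1 region, also intronic, had a fold of 9.31, rank 893. In the same shared pair the IRF4 fold was 4.93. By rank of fold within its own list, this POU2F1 pair stood at 14518 for POU2AF1 and 1446 for IRF4. The POU2F2 pair stood at 893 for POU2AF1 and 32445 for IRF4. These are single chosen pairs, and other intronic regions of both genes were called for only POU2AF1 or only IRF4.

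PRDM1, XBP1 and MYC encode the factors that mark the plasma cell program and myeloma growth. PRDM1 (BLIMP1) had 3 POU2AF1 regions and 11 IRF4 regions, 2 shared in each, and its strongest IRF4 region (chr6:105992247-105992928, fold 8.48) had no POU2AF1 region on it. XBP1, the factor of the secretory program, had 2 POU2AF1 regions and 1 IRF4 region. The shared promoter region had levels of 32.1, rank 420, for POU2AF1 and 24.95 for IRF4. MYC had 2 POU2AF1 regions, both shared, and 3 IRF4 regions, with highest folds of 2.98 and 4.12. No gene of the plasma cell list had a region among the 500 highest folds of either protein.

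Gene lists were counted by the genes with a region in the gene body or within 10 kb upstream. A POU2AF1 region was found in 70.0% of all 19962 protein-coding genes, an IRF4 region in 80.0% and a shared region in 64.4%. Plasma cell genes had 23 of 24 with POU2AF1, 23 of 24 with IRF4 and 21 of 24 with a shared region. CD27 was the 1 gene with POU2AF1 alone, where 1.95% of all genes were so, and GPRC5D the 1 with IRF4 alone, where 12.0% of all genes were so. Genes of secretion and the unfolded protein response had 24 of 25 and 25 of 25. Housekeeping genes had much the same, 15 of 16 and 16 of 16, so these counts do not tell the plasma cell list from genes active in any cell. Hepatocyte genes had 3 of 12 and 5 of 12, and myeloid genes 4 of 12 and 7 of 12. B cell genes had 12 of 15 for both proteins, with FCER2 carrying POU2AF1 alone and MS4A1, which encodes CD20, IRF4 alone. T cell genes had 6 of 14 with POU2AF1 and 13 of 14 with IRF4, and 7 of 14, CD3D, CD3E, CD3G, CD4, CD8A, CD8B and CD2, had IRF4 alone. The CD3 genes are neighbours and can share a region.

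Interferon-stimulated genes, whose promoters hold the response element that IRF factors bind, differed between the proteins at the TSS. A POU2AF1 region lay within 1 kb of a TSS in 16 of 25, where all genes had 57.1%, and an IRF4 region in 23 of 25, where all genes had 64.8%. MX2, OAS1, OASL, IFI44, IFIH1, BST2 and XAF1, genes of antiviral proteins, had IRF4 alone there, 7 of 25 where 9.57% of all genes did. No gene of the list had POU2AF1 alone, where 1.88% of all genes did. RefSeq promoter sequence (GRCh38.p14, 250 bases before to 50 bases after the start) was matched for 18 of the 25. The IRF motif was in 14 of those 18, against 6.21% of 27305 genes. Of the 14, 8 had a POU2AF1 region and 12 an IRF4 region at the TSS. As 18 of 25 is under 80%, this sequence count does not stand for the whole list.

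Replication-dependent histone H2B genes are the textbook case of octamer promoters outside lymphoid genes. The octamer core was in 14 of the 18 H2B promoters with RefSeq sequence (19 in the list), against 4.51% of all promoters, and 13 of those 14 had a POU2AF1 region and 12 an IRF4 region at the TSS. Over the list, 17 of 19 had a POU2AF1 region within 1 kb of the TSS and 16 of 19 an IRF4 region, with H2BC14 the 1 with POU2AF1 alone. H2BC18 had the highest folds of the list, 11.7 for POU2AF1 and 14.7 for IRF4. Histone H2A genes, many of which face an H2B gene across a common promoter, had the core in 11 of 16 promoters. The H4 genes had the core in 0 of 13 promoters, and 11 of 15 had a POU2AF1 region and 11 of 15 an IRF4 region at the TSS, where all genes had 57.1% and 64.8%.

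Of the IRF family genes, 7 of 9 had a POU2AF1 region and 8 of 9 an IRF4 region. Of all protein-coding genes, 70.0% and 80.0% had them, so the counts of these short lists are not far from those of any gene. The highest folds were 8.04 at IRF3 for POU2AF1 and 11.6 at IRF1 for IRF4. Of the BATF and AP-1 genes, 8 of 10 had a POU2AF1 region and 9 of 10 an IRF4 region. BATF carried IRF4 alone, as did 12.0% of all genes. FOSL2 had the highest POU2AF1 fold, 10.3, and BATF3 the highest IRF4 fold, 7.11. The ETS partner genes had 8 of 9 for both proteins.

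RUNX1, a transcription factor of blood cells whose annotated body spans 1217 kb, had the most shared regions, with 19 POU2AF1 regions, all shared, and 45 IRF4 regions. HOOK2 had 13 shared, XYLT1 and PTPRG 11 each, and AOPEP, CACNA1C and KCNN3 10 each by the POU2AF1 list. FOXN3 and NSMCE2 had 9. Genes with POU2AF1 regions and no IRF4 region had few. PKD2L1 had 4, and GPR135, ZNF584, ZFTRAF1 and ENSG00000291316, which overlaps ZFTRAF1, had 3 each. Genes with IRF4 regions and no POU2AF1 region had more, with 12 at HS3ST4, 11 at SLC4A4, 10 at PDE1C, 9 at SH3KBP1 and 9 at CFTR. These 5 are ion transport, signalling and sulfation genes with bodies of 354 to 677 kb, and the counts were not adjusted for length.

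The immunoglobulin loci carried both proteins. Over the whole lists, 71.3% of POU2AF1 regions and 32.6% of IRF4 regions were shared. The heavy chain locus had 44 POU2AF1 regions (28 shared) and 52 IRF4 regions (29 shared), with highest folds of 23.4 and 12.2. Its strongest POU2AF1 region lay nearest to the pseudogene IGHVIII-38-1 and was rank 7 of the list, with IRF4 on it. The lambda locus had 23 POU2AF1 regions (14 shared) and 38 IRF4 regions (14 shared), and the octamer lay within 100 bases of 4 POU2AF1 and 3 IRF4 summits. In the heavy chain locus no summit of either protein had the exact octamer within 100 bases. Over all regions it was at 6.69% of POU2AF1-only, 4.72% of shared (POU2AF1 summit), 3.24% of shared (IRF4 summit) and 1.88% of IRF4-only summits. With such shares and so few regions, its absence cannot be read as a trait of the locus. The kappa locus had 6 POU2AF1 regions (2 shared) and 11 IRF4 regions (4 shared), and no summit with the octamer. The V segments are near copies of each other, so reads can be split among them, and the locus is rearranged in these cells, and the part of either in these values was not tested.

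Shared regions were seen again in other libraries more often than regions of either protein alone. They were also wider and of higher level, at medians of 9.41 against 5.99 for POU2AF1 and 12.3 against 7.36 for IRF4. Neither width nor level was matched in the comparisons with MM1.S and NCI-H526 cells below. With AU-15330 the gap was small among the strongest distal POU2AF1 regions. With AU-15330, 38.4% of all POU2AF1 regions were still called for POU2AF1, but only 0.887% of all IRF4 regions for IRF4. Of shared regions, 50.8% (50.1% to 51.4%) were still called for POU2AF1, compared with 7.83% (7.27% to 8.42%) of POU2AF1-only regions. With both DMSO lists at −log10 q of 5 or more, these were 62.3% of shared and 27.5% of POU2AF1-only regions. The AU-15330 IRF4 list held 1982 regions at an estimated 39.4 M tags. With fragment length taken as the shortest region, it had 153 bases, against 196 in the DMSO library. It met 2.31% of shared IRF4 regions and 0.198% of IRF4-only regions, or 0.579% and 0.0956% where 50% of the region had to be covered. At the stricter q the IRF4-only share was 0.327%. Shared promoters kept POU2AF1 calls in 77.4% and shared distal regions in 24.0%. Shared distal regions with a CTCF match kept them in 39.7%, and those without in 22.7%. With the IRF motif 11.2% kept them, and with the octamer core 16.4%. In the highest 20% of POU2AF1 folds 44.6% of shared and 39.5% of POU2AF1-only distal regions kept them, and fold was not matched between the other kinds of region.

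In MM1.S cells, 70.2% (69.6% to 70.8%) of shared POU2AF1 regions were called for POU2AF1 and 55.9% for IRF4. POU2AF1-only regions were called for POU2AF1 in 15.8% and for IRF4 in 6.51%. The POU2AF1 share was 42.5% with both NCI-H929 lists at −log10 q of 5 or more. IRF4-only regions were called for POU2AF1 in 18.3% and for IRF4 in 20.6%. A site with IRF4 alone in NCI-H929 was therefore called for POU2AF1 in MM1.S nearly as often as for IRF4. Within MM1.S itself, 48.8% of 36603 POU2AF1 regions overlapped an IRF4 region and 55.6% of 33326 IRF4 regions overlapped a POU2AF1 region. The overlap from the POU2AF1 side was lower there than the 71.3% of NCI-H929, and from the IRF4 side higher than the 32.6%. The MM1.S lists are close in length, and the NCI-H929 lists are not.

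POU2F3, the octamer factor of NCI-H526 lung cancer cells, met 46.9% of shared, 14.5% of POU2AF1-only and 8.44% of IRF4-only regions. At distal sites with the octamer core the shares were 42.7% (39.9% to 45.5%) of shared, 39.0% (35.5% to 42.5%) of POU2AF1-only and 19.1% (17.5% to 20.9%) of IRF4-only regions. Over all distal regions of those classes they were 21.8%, 11.0% and 6.36%. The MM1.S POU2AF1 list, by contrast, held 57.1% of the shared and 20.1% of the POU2AF1-only distal sites with the core. POU2AF1-only octamer sites of NCI-H929 were thus called more often for POU2F3 in the lung line than for POU2AF1 in the other myeloma line. The POU2F3 list is the longer, with 89850 regions.

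**Figure D5:**
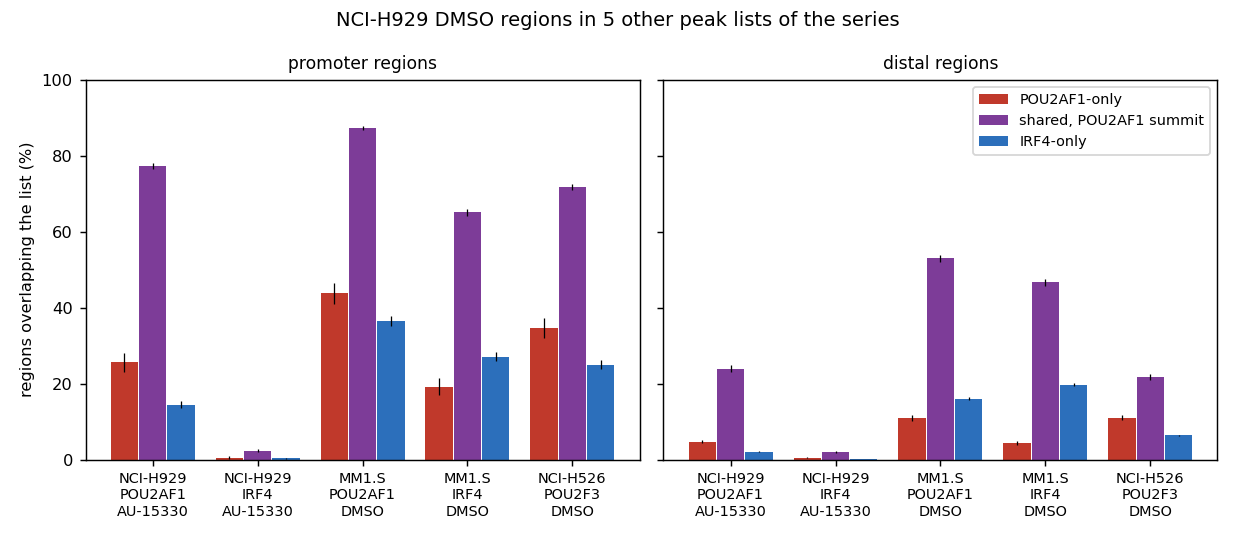
Share of POU2AF1-only, shared (POU2AF1 list) and IRF4-only regions of DMSO-treated NCI-H929 cells that overlap each of 5 other peak lists (%), for promoter regions (left) and distal regions (right), with 95% exact intervals. Shared regions are highest in every list shown, at 77.4% of promoter and 24.0% of distal regions for POU2AF1 with AU-15330.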

How the data were processed

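ChIP-seq peak lists were studied of POU2AF1 and IRF4 in DMSO-treated NCI-H929 cells, with 5 further lists of the study as readouts, each from 1 library. The study's methods and processing notes say that paired-end reads went through Trimmomatic (0.39), BWA against hg38, SAMtools and Picard (duplicates), and that the authors called peaks with MACS2 at q of 0.05 and dropped blacklisted regions. No control is named. The deposited fold enrichment is the authors' ratio of the summit pileup to the local background. The deposited −log10 p and −log10 q values and the score are also the authors', and a last deposited column gives the summit's distance from the region's start. Regions on chromosomes 1 to 22 and X were kept, which left out 0.881% of the POU2AF1 and 0.493% of the IRF4 list. The members and lists were chosen with earlier results of these data known.

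Regions were compared by an overlap of at least 1 base. The pileup at each summit was solved from the deposited fold and p-value as a whole number, within a tolerance of 0.002, for 100% of the regions of both lists, and the level is that pileup over the background of the whole library. The estimate of depth, in tags, follows from that background over 2.7 Gb and a fragment length taken as the shortest region of each list. Genes and TSSs are protein-coding genes of GENCODE 44. Motifs were sought on either strand up to 100 bases from a summit. Intervals are 95% Clopper-Pearson. Named genes are those of the circuit (IRF4, POU2AF1, POU2F1, POU2F2, MYC, PRDM1, XBP1), the 10 strongest regions of each class (shared regions by their worse rank of fold), genes with the most regions, and members of the IRF, octamer, H2B and AP-1 lists with the highest folds. Other genes were singled out after their values were seen. Some genes that the rule names are not reported here. Alternatives tried were other overlaps, windows, thresholds, rankings and numbers of regions. Scripts were tested on simulated data. Python 3.11.15, pandas 2.3.3 and scipy 1.17.1 were used.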

Additional observations from a re-analysis of the deposited data

How the results depend on the processing

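No paired analysis was possible because each protein has 1 library per condition and no replicate number. No test was made, so the alternatives give shifts of value only, and a value is called moved when it left the counting interval of the reported one. A count of genes is called moved when it changed by over 1.5 times. Of 69 alternatives to 22 values, 57 moved, 8 shares stayed within the interval and 4 counts of genes within 1.5 times. Those counts were of 246 list entries, with a POU2AF1 region in 194 (172 within 2 kb of a TSS, 232 with 50 kb to either side) and an IRF4 region in 216 (183 and 239). The cause was not tested beyond what each setting changes itself.

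The share of POU2AF1 regions on IRF4 regions (71.3% as reported) was 65.8% with 50% of the region covered, 57.8% with summits within 200 bases, 81.1% with both lists at −log10 q of 5 or more, 45.0% with the same number of highest folds from each list, 25.6% with 10000 highest folds of each and 37.7% with 10000 highest levels of each, a setting added after seeing the data. The share of IRF4 regions on POU2AF1 regions (32.6%) was 25.4%, 26.4%, 30.5%, 44.1%, 25.6% and 37.2% under the same settings in that order. Pairs with summits within 100 bases were 62.5% at the stricter q, against 59.5% as reported.

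Promoter shares within 2 kb of a protein-coding TSS, within 1 kb of any GENCODE TSS and at the stricter q were 18.8%, 19.1% and 32.6% for POU2AF1-only, 53.1%, 56.2% and 56.5% for shared, and 14.9%, 15.0% and 13.2% for IRF4-only regions. Over all regions, promoters included, the octamer core was in 10.3% of POU2AF1-only, 7.07% of shared and 5.08% of IRF4-only regions, and the IRF motif in 5.26%, 8.71% and 17.6%. The octamer core within 50 and within 200 bases was in 6.50% and 15.6% of POU2AF1-only, 4.73% and 9.93% of shared, and 2.54% and 9.83% of IRF4-only regions. At the stricter q it was in 14.4% of POU2AF1-only regions, and in distal regions in 11.7% of shared and 5.45% of IRF4-only. The IRF motif within 50 and within 200 bases was in 2.39% and 10.7% of POU2AF1-only, 4.92% and 13.9% of shared, and 11.6% and 23.6% of IRF4-only regions. At the stricter q it was in 4.21% of POU2AF1-only and 20.4% of IRF4-only regions, and in distal regions in 14.2% of shared and 18.6% of IRF4-only.

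With 50% of the region covered and at the stricter q, regions still called with AU-15330 were 6.01% and 27.5% of POU2AF1-only and 41.4% and 62.3% of shared regions for POU2AF1, and 0.579% and 2.93% of shared and 0.0956% and 0.327% of IRF4-only regions for IRF4. In MM1.S the same settings gave 13.6% and 42.5% of POU2AF1-only and 64.4% and 78.9% of shared regions for POU2AF1, and 38.7% and 64.9% of shared and 16.7% and 29.9% of IRF4-only regions for IRF4. At the weak end, the lowest pileup in the lists was 9 fragments in both DMSO lists.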

Other observations

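The CTCF motif, bound by an insulator protein that neither antibody was raised against, was a leading match of POU2AF1-only regions but not particular to them. It was in 6.21% of POU2AF1-only, 7.66% of shared (POU2AF1 summit) and 4.01% of IRF4-only distal regions. The flanks of these classes had it in 0.523%, 0.576% and 0.525%. Among distal POU2AF1-only regions with the highest 20% of folds it lay in 26.01%, beside 28.7% for the octamer. At shared distal regions with the CTCF motif the log2 ratio of POU2AF1 level to IRF4 level was -0.13, and at those with the IRF motif and no octamer -1.17. In MM1.S cells 37.7% of the POU2AF1-only distal regions with a CTCF match were called for POU2AF1, against 9.19% of those without. No CTCF library was used here.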
